A study of Rattus norvegicus with 64 samples.

Results

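The genes of histamine turnover and of the mast cell were followed through the lungs of rats that had breathed filtered air or dust from fracking sand, a silica-rich sand used in hydraulic fracturing of wells. The group holds 10 genes named in advance of this account: Aoc1, Hdc and Hnmt, which make or break down histamine, and Cpa3, Tpsb2, Mcpt2, Cma1, Kit, Ms4a2 and Fcer1a, which mast cells use. They were chosen by measured values of these same libraries, namely the fold change of Aoc1 between dust and air on day 1 of the 30 mg/m3 study, and the levels of mast cell markers as a list on day 7 of both studies. Those 3 contrasts are therefore given as a description, with no test for the 10 genes. All 10 had a row in the count tables, among 30045 gene symbols, and 9 passed the filter on low counts in both studies, among 15323 that did so. Hnmt was the gene that did not pass.

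Male Sprague-Dawley rats, an outbred strain whose age is not given in the sources used here, were placed in a whole-body inhalation chamber for 6 hours a day on 4 days. They received filtered air or dust at 10 or 30 mg/m3, and a piece of lung was taken 1, 7 or 27 days after exposure. Every dose had separate air rats, and the doses are treated as separate studies. At 10 mg/m3 there were 5 air and 5 dust rats on day 1, 5 and 5 on day 7 and 4 and 4 on day 27, and at 30 mg/m3 there were 6 air and 6 dust rats on each day. Total RNA without ribosomal RNA was sequenced in 64 libraries, each with a number in its title that is read here as the number of the rat. Nothing else shows that the libraries are separate animals, so the p-values measure the spread between these libraries.

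Mast cells are resident cells of the airway wall, the pleura and the tissue around lung vessels, and they store histamine with proteases in granules that are released when antigen crosslinks IgE on their surface. Histamine is made from histidine by histidine decarboxylase (Hdc). It is inactivated by a methyltransferase inside cells (Hnmt) or by diamine oxidase (Aoc1), a secreted copper enzyme that also oxidises putrescine. The granule proteases are the carboxypeptidase Cpa3, the tryptase Tpsb2 and the chymases Mcpt2 and Cma1, of which Mcpt2 is classically the mucosal mast cell protease of the rat. Fcer1a and Ms4a2 encode the alpha and beta chains of the high-affinity IgE receptor, and Kit is the receptor for stem cell factor, on which mast cells depend. Kit is also made by capillary endothelial cells of the lung.

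Library totals ran from 3420235 to 12359518 counts, and levels are given as CPM (counts scaled to a common library size), adjusted by the normalisation factors of edgeR. Lung markers were abundant in every library: the surfactant gene Sftpc ran from 6698 to 13688 CPM and the alveolar type 1 gene Ager from 1345 to 2417 CPM. Marco, a macrophage receptor listed among the lung markers, had 0 counts in 46 of 64 libraries. Air rats 51 and 53 of day 1 in the 30 mg/m3 study stood apart, with counts for 21889 and 22077 genes at totals of 5950924 and 5559459 counts, while no other library had counts for more than 19731 genes. Results that rest on these 2 rats are given with and without them.

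The promoters of 4 mast cell genes are shown because Cpa3, Cma1, Fcer1a and Tpsb2 varied together from rat to rat, as described below, and because they differ in a GATA motif. Each run gives the 250 bases before the transcription start in RefSeq (build GRCr8), 5′ to 3′ on the strand of the gene, with AGATAA or its reverse complement TTATCT in capitals.
Cpa3 (chr2:104673238-104673487, minus strand): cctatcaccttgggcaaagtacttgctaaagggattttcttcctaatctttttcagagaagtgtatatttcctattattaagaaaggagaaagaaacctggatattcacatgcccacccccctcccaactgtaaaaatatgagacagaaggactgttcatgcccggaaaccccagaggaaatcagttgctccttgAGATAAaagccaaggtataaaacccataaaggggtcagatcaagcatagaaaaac
Cma1 (chr15:33390134-33390383, minus strand): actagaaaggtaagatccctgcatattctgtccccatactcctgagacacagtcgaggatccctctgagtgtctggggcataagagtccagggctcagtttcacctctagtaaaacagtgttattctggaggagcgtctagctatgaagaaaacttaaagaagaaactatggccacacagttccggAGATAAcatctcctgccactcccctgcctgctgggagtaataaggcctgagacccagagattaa
Fcer1a (chr13:88224680-88224929, minus strand): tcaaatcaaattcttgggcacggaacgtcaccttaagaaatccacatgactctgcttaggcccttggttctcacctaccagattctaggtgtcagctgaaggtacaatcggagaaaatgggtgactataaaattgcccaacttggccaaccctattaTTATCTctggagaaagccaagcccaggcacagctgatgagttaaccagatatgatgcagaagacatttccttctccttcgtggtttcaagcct
Tpsb2 (chr10:14886060-14886309, plus strand): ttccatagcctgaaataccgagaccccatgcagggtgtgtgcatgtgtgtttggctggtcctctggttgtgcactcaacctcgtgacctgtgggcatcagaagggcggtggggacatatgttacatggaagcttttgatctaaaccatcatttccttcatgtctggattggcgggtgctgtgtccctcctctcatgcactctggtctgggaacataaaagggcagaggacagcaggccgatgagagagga
Of the 10 genes, 8 had an entry in the RefSeq promoter table; Mcpt2 and Ms4a2 had none. The motifs were searched on both strands and were chosen after the values were seen. AGATAA was found in Cpa3, Cma1 and Fcer1a and in 10.3% of 33469 rat promoters of the same length. The letters CATGTG, an E-box, were found in Cpa3, Fcer1a and Tpsb2 and in 12.1% of the promoters, and TTCNNNGAA, the STAT5 motif, was found in Cpa3 and in 7.67%. CACGTG, present in 5.59%, was in none of the 8, and the windows of Aoc1, Hdc, Hnmt and Kit held none of the 4 motifs. AGATAA does not overlap the other motifs in these windows. These are matches of letters in a window and show no binding.

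Aoc1, the diamine oxidase, was higher with dust on average at both doses and on all 3 days. Its dust and air groups were free of overlap only on day 1 of the 30 mg/m3 study and overlapped in the other pairs. No other gene of the 10 was free of overlap in any of the 6 pairs. Since that day 1 contrast chose Aoc1, nothing is read from this difference between the genes. A log2 fold change of 1 is a doubling, and its standard error (SE) comes from the fit over all groups of that study. On day 1 of the 30 mg/m3 study, the contrast that chose it, the 6 air rats ran from 17.6 to 37.8 CPM with a median of 24.5, and the 6 dust rats from 45 to 104 CPM with a median of 57.1. Every dust rat lay above every air rat, and the log2 fold change was 1.38 ± 0.29 (SE), 2.61-fold. Without air rats 51 and 53 it was 1.62 ± 0.34. Groups that did not overlap with dust on the higher side were found in 0.212% of 15551 genes in this contrast, and on the lower side in 0.154%; since Aoc1 was chosen here, nothing is read from these shares.

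The late time point at the same dose was not used to choose the gene. On day 27 the 6 air rats ran from 18.1 to 44.7 CPM with a median of 29.7, and the dust rats from 41.4 to 99.8 CPM with a median of 79.7. Rat 89 was the only dust rat below the highest air rat, number 83, and the other 5 lay above all 6 air rats. The air mean was 30.3 ± 9.76 CPM and the dust mean 71.9 ± 23.2 CPM (SD, n = 6 each), and the log2 fold change was 1.25 ± 0.29. By edgeR's quasi-likelihood test, with Benjamini-Hochberg adjustment over all genes tested, this gave an adjusted p of 0.2315, rank 6 by p of 15551 genes, so Aoc1 did not pass the threshold of 0.05. No gene passed in this comparison (0%), neither DESeq2 nor limma voom called any, and 1141 genes had an unadjusted p under 0.05. The adjusted p for Aoc1 was 0.05869 by DESeq2 and ran from there to 0.6357 over all alternatives, while its log2 fold change stayed between 1.13 and 1.39.

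The 10 mg/m3 study showed higher means with dust and far wider scatter. On day 1 Aoc1 was at 24.7, 49.1, 21.5, 21 and 47.3 CPM in the 5 air rats and at 11.69, 32.7, 80.3, 35.5 and 71.2 CPM in the 5 dust rats. Both the lowest rat (27, the library with the smallest total) and the highest (30) were dust rats. The log2 fold change was 0.53 ± 0.53 (adjusted p = 0.6103 by edgeR). It ran from 0.26 to 0.74 with 1 library left out in turn, and was highest without rat 27 (0.74 ± 0.53). On day 7, a described contrast, air rats were at 26.3, 21.5, 41.2, 17.4 and 20.2 CPM and dust rats at 30.6, 23.8, 74.4, 64.5 and 92.6 CPM. In that group 3 of the 5 dust rats lay above all air rats, and the log2 fold change was 1.17 ± 0.54. In that contrast dust was higher without overlap in 0.504% of genes and lower in 0.855%.

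On day 27 of the 10 mg/m3 study single rats set the Aoc1 means. Air rats were at 60.5, 18.9, 22.3 and 15.9 CPM and dust rats at 104, 19.8, 53.1 and 15.3 CPM, so the groups overlapped over most of their range. The log2 fold change was 0.71 ± 0.59 (edgeR adjusted p = 0.9997), 0.0049 ± 0.59 without dust rat 13 and 1.34 ± 0.63 without air rat 1. The difference between the doses in the day 27 effect was 0.53 ± 0.61 on the log2 scale (adjusted p = 1), and -0.10 ± 0.62 without that air rat and 1.23 ± 0.61 without that dust rat. On day 7 at 30 mg/m3, a described contrast, Aoc1 spanned 12.9 to 41.4 CPM in the air group and 18.6 to 56.2 CPM in the dust group, with a log2 fold change of 0.27 ± 0.29 and 1 of 6 dust rats above all air rats.

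**Figure D1:**
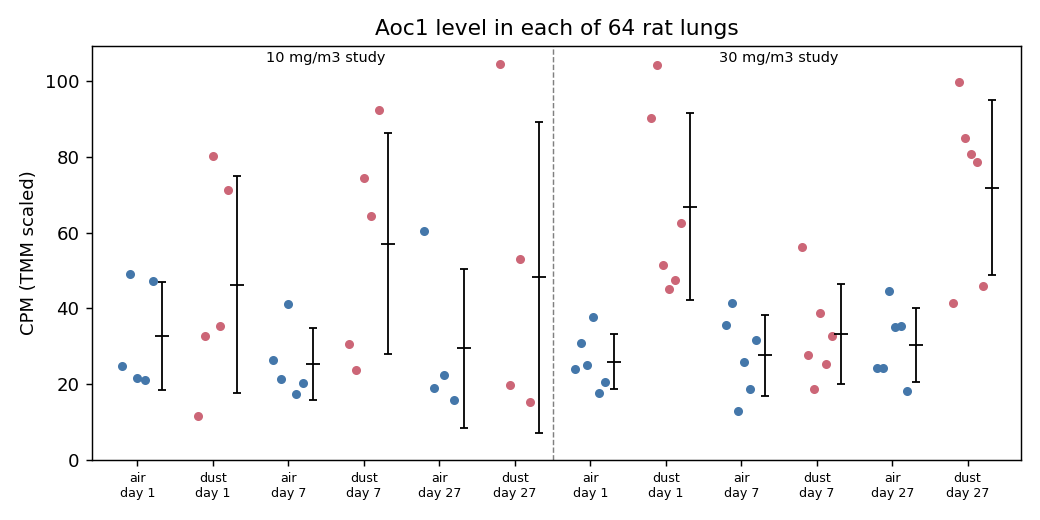
Aoc1 in each of the 64 lungs, in CPM on a linear axis (points: rats, blue for air and red for dust; bars: mean and SD of the group). Dust and air separate on day 1 of the 30 mg/m3 study (45 to 104 against 17.6 to 37.8 CPM), nearly so on day 27, and overlap on day 7 and in all 3 pairs of the 10 mg/m3 study.

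The mean of Aoc1 was higher with dust in 6 of 6 pairs of groups. Over both studies, 13 of 32 dust rats lay above the highest of the 32 air rats (60.5 CPM), with medians of 49.5 CPM in dust and 24.5 CPM in air; the contrast that chose the gene is part of these counts. In air rats alone Aoc1 did not change detectably with time, with log2 differences from day 1 between -0.37 and 0.23 in the 4 comparisons and adjusted p between 0.6323 and 0.9196. Its scatter between rats of 1 group was large: the SD of log2 CPM within groups was 0.689, where counting alone gives 0.082, and 99.2% of 5274 genes of a similar mean level had a smaller SD. The genes that varied most like it within groups over the 64 libraries were the macrophage receptor Slamf8 (Pearson's r = 0.542), the malic enzyme Me2 (0.541), the ephrin receptor Epha3 (0.516), Cnih1 (0.506) and Enpp5 (0.501), picked as the highest of 15065 genes. None of the 13 lists of cell types and pathways had an r with Aoc1 outside -0.234 (smooth muscle markers) to 0.254 (type 2 cytokines and drivers), and its r with the 6 mast cell genes ran from -0.10 to 0.20.

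Hdc, the histamine-forming enzyme, was present at a low level. Its SD of log2 CPM within groups was 0.278, and 71.1% of 4286 genes of a similar mean level had a smaller SD. It ran from 7.58 to 23.0 CPM over the 64 lungs, with medians of 11.9 CPM in air and 12.8 CPM in dust. Air rat 6 of day 27 in the 10 mg/m3 study held the top value, and no dust rat reached it. Dust means were higher than air means in 6 of 6 pairs, by 0.07 to 0.25 on the log2 scale with SE of 0.13 to 0.24; the described value for day 1 at 30 mg/m3 was 0.19 ± 0.13, and 0.25 without air rats 51 and 53. The 3 tested differences were 0.25 ± 0.22 on day 1 at 10 mg/m3, 0.07 ± 0.24 on day 27 at 10 mg/m3 and 0.07 ± 0.13 on day 27 at 30 mg/m3, and by edgeR none passed (adjusted p from 0.5514 to 0.9997). Within groups the r of Hdc with the 6 mast cell genes was between 0.03 and 0.32, and its 5 nearest genes, led by Dnase2b (0.590), included none of them.

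Hnmt, the other route of histamine breakdown, was at or near 0. It had 0 counts in 45 of 64 libraries, at most 3 counts in any, and 23 counts in all. The 3 counts were in air rat 53 and air rat 51 had 1, while the other air rats of their group had none. A count of 0 allows up to 3 counts, which is 0.247 to 0.923 CPM depending on the library, so these data do not show whether Hnmt was made at a lower level, and it was not tested. In the 3 groups with a single count in a single rat (dust rats 48, 57 and 94), the level was 0.145, 0.103 and 0.144 CPM.

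**Figure D2:**
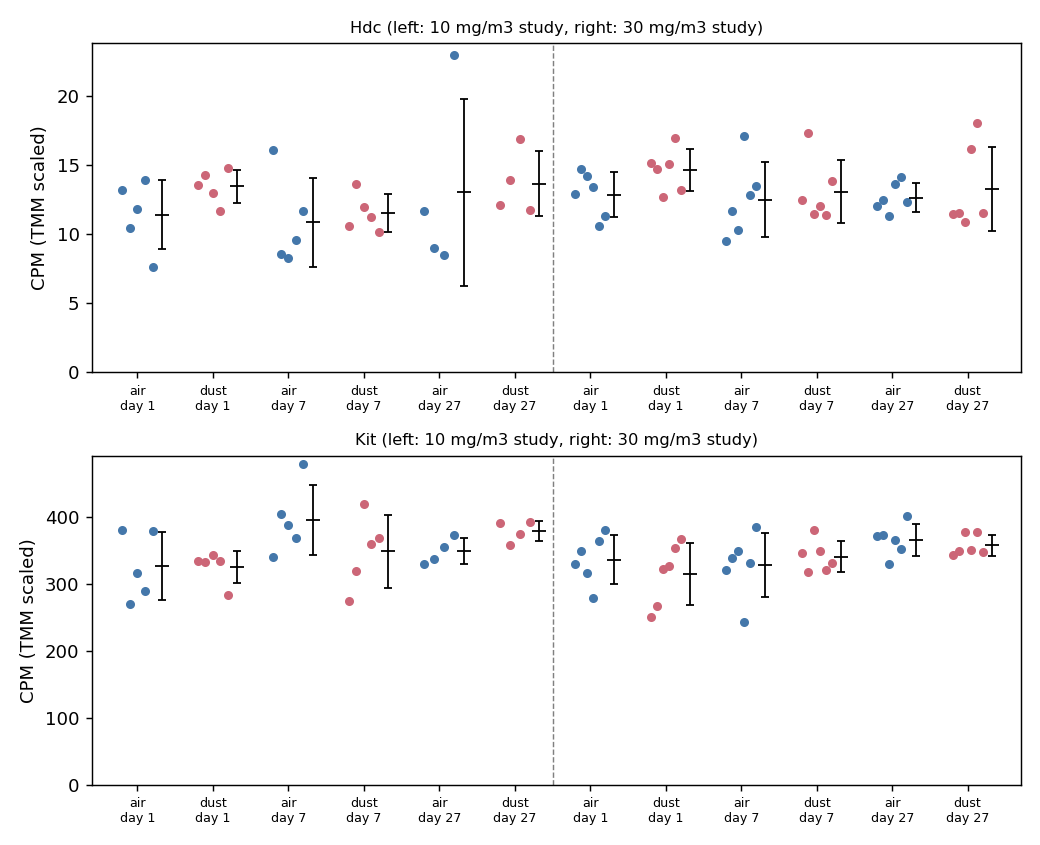
Hdc (top) and Kit (bottom) in each of the 64 lungs, in CPM on linear axes that start at 0 (points: rats, blue for air and red for dust; bars: mean and SD of the group). Air and dust overlap in every pair for both genes, and the highest Hdc value (23.0 CPM) belongs to an air rat of day 27 in the 10 mg/m3 study.

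The 6 other mast cell genes, Cpa3, Tpsb2, Mcpt2, Cma1, Ms4a2 and Fcer1a, were all found at low levels and varied together from rat to rat within groups. The 15 pairs among them had r between 0.404 and 0.847 (median 0.653) over 64 libraries after the group means were removed. Pairs of these 6 with Aoc1, Hdc or Kit had r between -0.104 and 0.323 (median 0.105). Without air rats 51 and 53 the ranges were 0.351 to 0.83 and -0.157 to 0.305. These points share depth and the piece of lung that was sampled. In whole tissue, fewer mast cells and less RNA per mast cell cannot be told apart.

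**Figure D3:**
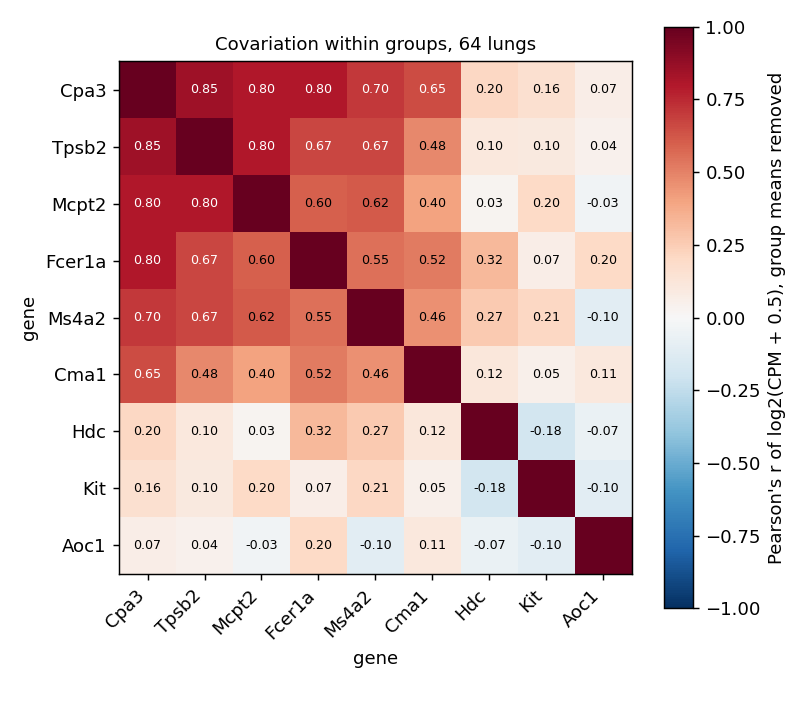
Pearson's r between the 9 genes that passed the filter, from log2(CPM + 0.5) of 64 lungs with each group mean removed. The 6 mast cell genes in the upper left hold r from 0.40 to 0.85, while Hdc, Kit and Aoc1 in the lower right have r of 0.32 or less with them.

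Cpa3 and Tpsb2 were the closest pair (r = 0.847), and Mcpt2 followed Tpsb2 (0.802) and Cpa3 (0.80). Genes outside the 10 that varied like them were the granule protease Mcpt10 (0.809 with Cpa3), Tph1, the enzyme that makes serotonin in rodent mast cells (0.732 with Cpa3), the protease Mcpt1l1 (0.702 with Cma1) and the tryptase Tpsab1 (0.675 with Ms4a2). Cma1 was the least tied to the rest, with r of 0.40 to 0.65. Its SD of log2 CPM within groups was 0.605, where counting alone gives 0.357. These values were 0.656 and 0.363 for Fcer1a, 0.47 and 0.318 for Ms4a2, and 0.644 and 0.157 for Cpa3. The part of counting in the r values was not tested. The list of genes nearest to Cma1 held Mcpt1l1 and Cpa3 and then genes that are not mast cell markers, such as Ttc9c (0.58). The proteases of this family are close in sequence, so their counts may share reads.

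Cpa3, the carboxypeptidase, was the most abundant of the 6 genes, and its levels are given in detail. On day 1 of the 30 mg/m3 study, 4 air rats were at 7.38, 8.62, 10.5 and 12.4 CPM, while air rats 51 and 53 were at 24.5 and 24.9 CPM. Dust rats ran from 10.9 to 31.3 CPM with a median of 16.7, and rats 61 and 62 were highest (31.3 and 27.8 CPM). The described log2 fold change was 0.42 ± 0.32 with all rats and 0.98 ± 0.33 without air rats 51 and 53. Fcer1a had 3.69 and 3.66 CPM in those 2 air rats against 0.784 to 1.58 in the other 4, and 1.65 to 4.74 in dust; its log2 fold change was 0.69 ± 0.34 with them and 1.35 ± 0.35 without. The same step moved Cma1 from 0.48 to 1.10, Mcpt2 from 0.41 to 0.89, Tpsb2 from 0.14 to 0.81 and Ms4a2 from 0.12 to 0.45. Whether what sets these 2 libraries apart has a part in their mast cell values was not tested.

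On day 7, also described, the 2 studies differed in the side on which dust lay. At 10 mg/m3 all 6 genes had negative log2 fold changes, from -0.72 ± 0.50 for Mcpt2 to -0.23 ± 0.55 for Fcer1a, with Cpa3 at 17.1, 9.79, 7.00, 3.03 and 10.9 CPM in air and 5.48, 5.02, 5.24, 7.12 and 11 CPM in dust. At 30 mg/m3 Cpa3 spanned 4.23 to 14.8 CPM in air rats (median 5.26) and 5.33 to 15.3 CPM in dust rats (median 11.8), 0.64 ± 0.34 on the log2 scale. Dust rats other than 73 lay above all air rats but number 71. With 1 library left out in turn the Cpa3 value ran from 0.53 to 1.00, and it was highest without air rat 71 (1.00 ± 0.33). Fcer1a was 0.73 ± 0.35, Mcpt2 0.55 ± 0.41 and Tpsb2 0.36 ± 0.38, while Ms4a2 (-0.03 ± 0.31) and Cma1 (-0.13 ± 0.40) had values under their SE. No gene of the 10 was free of overlap on day 7; at 30 mg/m3 dust was higher without overlap in 0.135% of genes and lower in 0.579%, from which nothing is read. Heart muscle markers, made among other places in the muscle sleeve of the pulmonary veins, differed in the same rats: at 30 mg/m3 their 10 genes summed to 548 to 1883 CPM in air and 147 to 381 CPM in dust, with 0 of 9 above 0 and a median log2 fold change of -2.18. At 10 mg/m3 they summed to 136 to 1273 CPM in air and 155 to 1932 CPM in dust, with 8 of 8 above 0 and a median of 1.54. No marker was at 0 throughout a group, and the part of this tissue in the mast cell values was not tested.

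**Figure D4:**
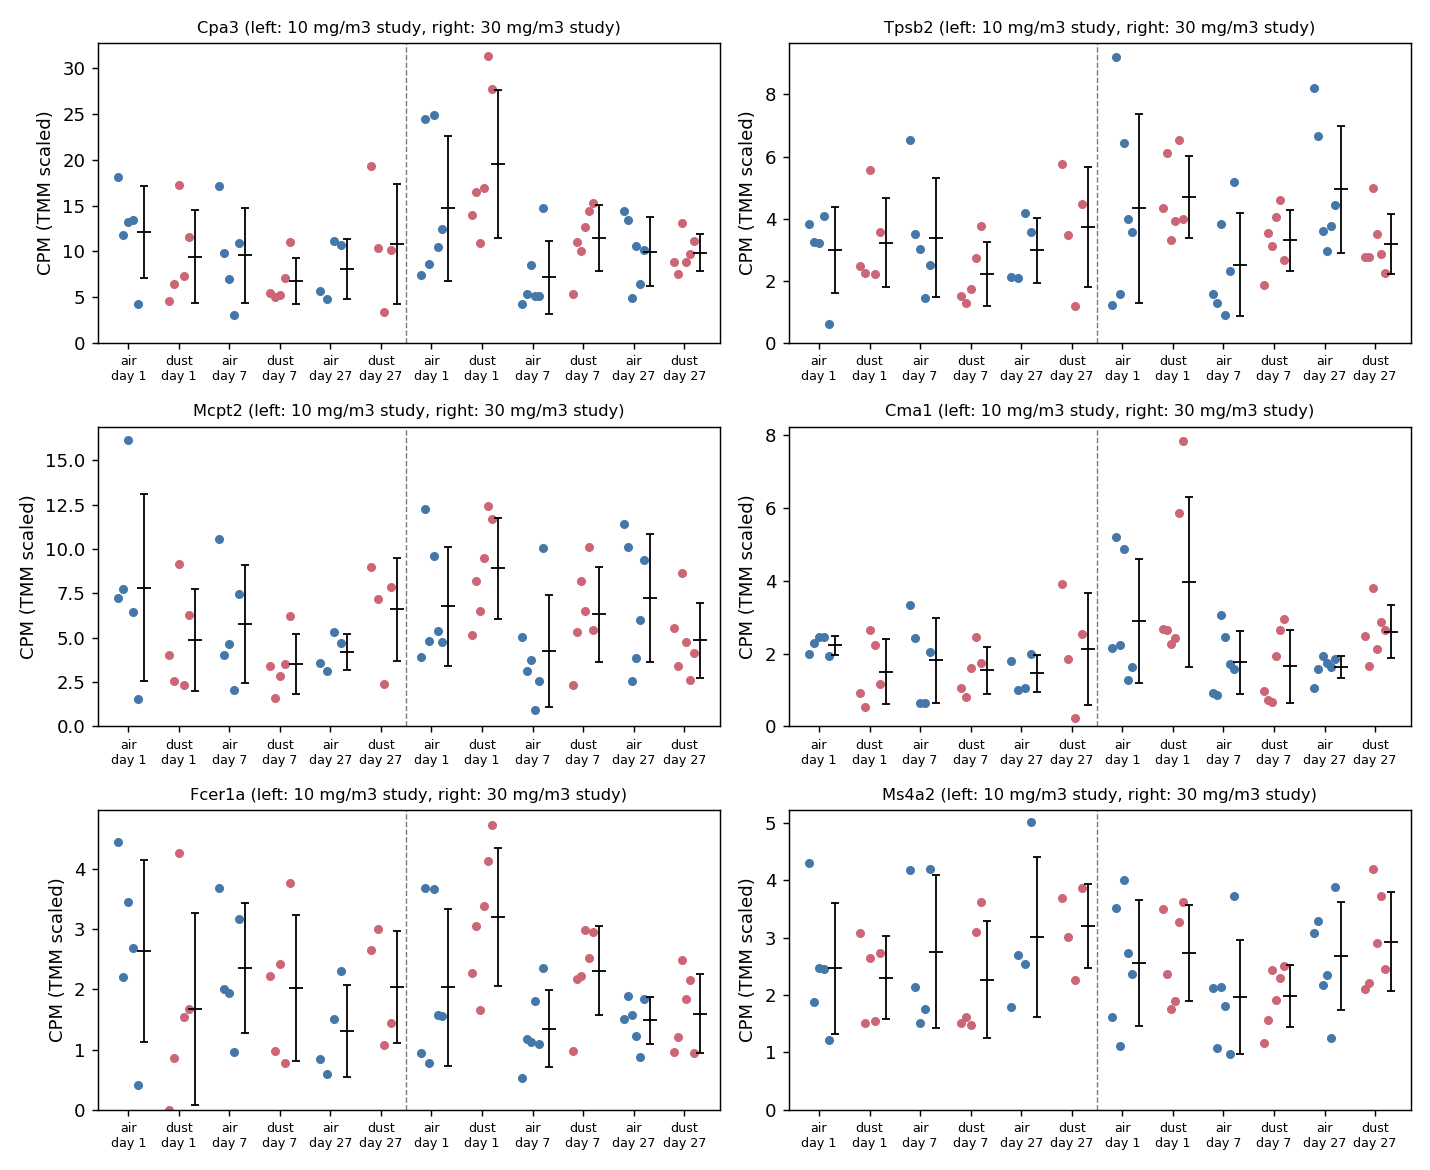
The 6 mast cell genes in each of the 64 lungs, in CPM on linear axes (points: rats, blue for air and red for dust; bars: mean and SD of the group). The same rats are high in several panels, such as air rats 51 and 53 on day 1 of the 30 mg/m3 study (Cpa3 at 24.5 and 24.9 CPM), and dust and air overlap in every pair of groups.

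Among comparisons not used in the choice, no gene of the 9 passed. On day 1 at 10 mg/m3 edgeR called 20 of 15668 genes (0.128%), 0 of the 9 were called and 0 had an unadjusted p under 0.05. The chymase Mcpt2 was at 7.22, 7.74, 16.1, 6.42 and 1.52 CPM in air and 4.00, 2.58, 9.13, 2.32 and 6.30 CPM in dust, a log2 fold change of -0.65 ± 0.48 (adjusted p = 0.4696). Air rat 21 was the lowest rat of its group for all 6 mast cell genes, with Tpsb2 at 0.606, Cpa3 at 4.24 and Fcer1a at 0.404 CPM, and dust rat 27, the library with the smallest total, had 0 counts of Fcer1a, which allows up to 0.923 CPM. DESeq2 called 474 genes and limma voom 8 in this comparison, again with none of the 9 among them. Airway epithelium markers differed in the same rats, with sums of 1333 to 3139 CPM in air and 2408 to 4080 CPM in dust, 8 of 8 above 0 and 1 of the 10 at 0 throughout each group, and their part in these values was not tested.

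On day 27 at 10 mg/m3 all 9 log2 fold changes lay above 0, with a median of 0.43 where all genes had a median of -0.01, and no gene passed (0% by edgeR, DESeq2 and limma voom; 369 genes with an unadjusted p under 0.05, 0 of the 9). Since 6 of the 9 genes varied together from rat to rat, their fold changes are not 9 separate results. Of the 15 other mast cell genes tested, 7 lay above 0, with a median of -0.05. Mcpt2 was at 3.58, 3.09, 5.32 and 4.70 CPM in air and 9, 7.17, 2.36 and 7.85 CPM in dust. Dust rats 13, 14 and 16 lay above all air rats and rat 15 lay below all of them, and the log2 fold change was 0.66 ± 0.54 (adjusted p = 0.9997). Rat 15 was the lowest dust rat for all 6 mast cell genes, with Cpa3 at 3.33, Tpsb2 at 1.18 and Cma1 at 0.215 CPM. Rat 13 was the highest for Cpa3, and without it the log2 fold change of Cpa3 went from 0.43 ± 0.48 to -0.02 ± 0.51. Tissue markers lay to 1 side in the same comparison: 0 of 8 cardiac muscle markers were above 0 (median -0.97, summed levels 60.6 to 934 CPM in air and 107 to 384 CPM in dust, with 1 of the 10 at 0 throughout the dust group). Of the smooth muscle markers 7 of 8 were above 0 (sums 1895 to 2620 CPM in air and 2479 to 2863 CPM in dust), and of the lung identity markers 0 of 6. No marker was called, and the part of these tissues in the mast cell values was not tested.

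On day 27 at 30 mg/m3 the granule proteases pointed in different directions, and none passed. Cma1 spanned 1.06 to 1.93 CPM in air rats (median 1.68) and 1.65 to 3.80 CPM in dust rats (median 2.56), with 5 of 6 dust rats above all air rats and a log2 fold change of 0.68 ± 0.39 (edgeR adjusted p = 0.7483). Tpsb2 spanned 2.95 to 8.21 CPM in air rats (median 4.10) and 2.26 to 4.98 CPM in dust rats (median 2.82), with 4 of 6 dust rats below all air rats and a log2 fold change of -0.64 ± 0.37 (adjusted p = 0.7546). Mcpt2 was at -0.58 ± 0.41, while Cpa3 (-0.04 ± 0.33), Fcer1a (0.09 ± 0.36) and Ms4a2 (0.11 ± 0.29) had values under their SE. Of the 9 genes, 5 lay above 0 and only Aoc1 had an unadjusted p under 0.05. Outside the 10, the protease Mcpt1l1 resembled Cma1, with 4.02 CPM in air and 7.72 CPM in dust, 0.93 ± 0.42 on the log2 scale (edgeR adjusted p = 0.62). Reads may be shared between Mcpt1l1 and Cma1. The tryptase Tpsab1 ran from 0.752 to 5.19 CPM in air rats and from 0.860 to 3.59 CPM in dust rats. Mcpt10 ran from 2.76 to 3.79 CPM in air rats and from 2.58 to 3.77 CPM in dust rats. For both of these genes air and dust overlapped over most of the range. Of the 15 other mast cell genes tested, Mcpt1l1 among them, 6 lay above 0, with a median of -0.06. The dose difference of the day 27 effect was largest among the 9 for Mcpt2, at -1.26 ± 0.68 (edgeR adjusted p = 1). In that comparison 0 of 16190 genes passed (0%) by edgeR, DESeq2 and limma voom, 283 had an unadjusted p under 0.05, and 0 of the 9 did.

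Kit had r of only 0.05 to 0.21 with the 6 mast cell genes. It ran from 243 to 480 CPM with an SD of log2 CPM within groups of 0.162, and 58.2% of 1077 genes of a similar mean level had a smaller SD. Among the marker lists its r was 0.478 with lung capillary endothelium, -0.453 with airway epithelium and -0.433 with neutrophils. The nearest genes were the junction protein Tjp1 (0.678), Plce1 (0.669), Frem2 (0.663), Ints7 (0.649) and Fam13c (0.643). Dust against air gave log2 fold changes from -0.18 ± 0.10 (day 7 at 10 mg/m3, described) to 0.12 ± 0.12 (day 27 at 10 mg/m3), and groups overlapped in every pair. The described value for day 1 at 30 mg/m3 was -0.10 ± 0.09, and -0.15 without air rats 51 and 53.

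**Figure D5:**
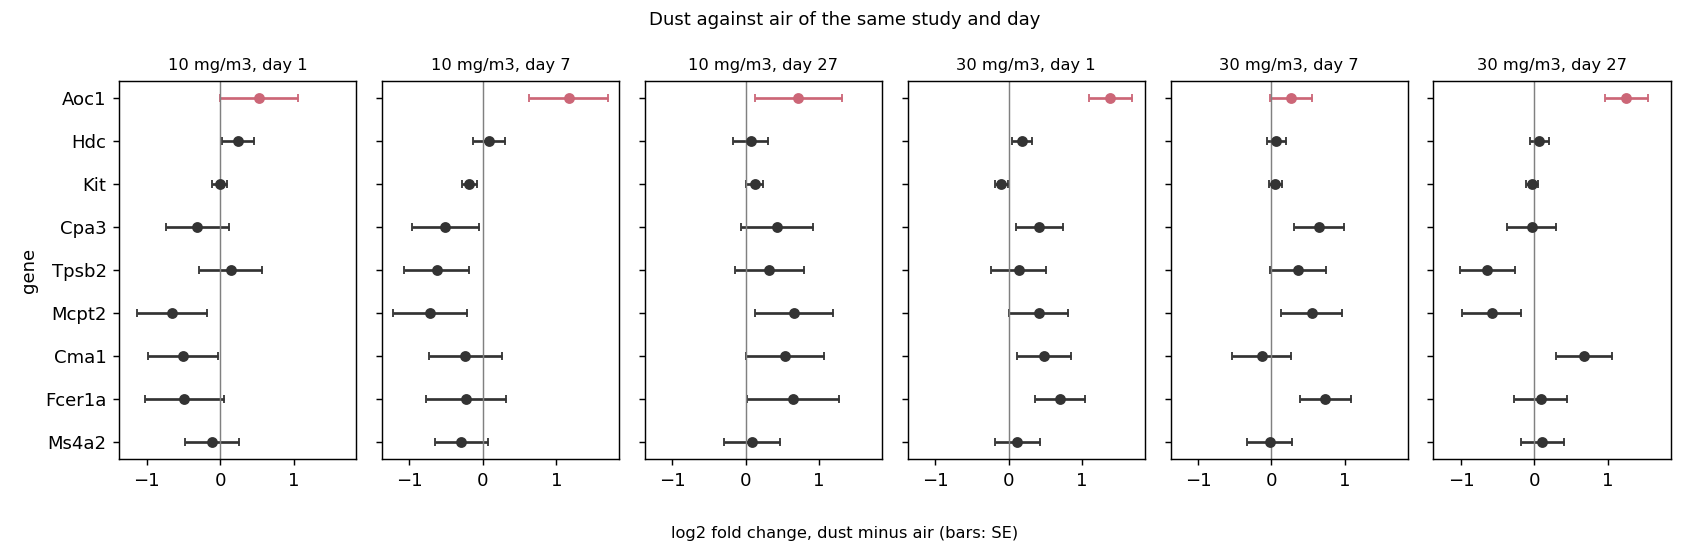
Log2 fold change of dust against air of the same study and day for the 9 genes that passed the filter (points: estimate; bars: SE; the line at 0 marks no difference). Aoc1 lies to the right of 0 in all 6 panels, from 0.27 to 1.38, while the 6 mast cell genes lie left of 0 on day 7 at 10 mg/m3 and on both sides of it on day 27 at 30 mg/m3.

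No change over time in air passed for the 9 genes. Between day 1 and day 7 of the 10 mg/m3 study, where 925 genes were called (5.9%), Kit went from 327 ± 51.1 to 397 ± 52.5 CPM (SD, n = 5 each), 0.28 ± 0.10 on the log2 scale (edgeR adjusted p = 0.1094), and 3 of 5 rats of day 7 lay above all rats of day 1. Without air rat 17 of day 1 Kit passed (0.34, adjusted p = 0.03468). In the 30 mg/m3 study Cpa3 went from 14.7 ± 7.91 CPM on day 1 to 7.19 ± 3.99 CPM on day 7 (SD, n = 6 each), -0.99 ± 0.34 (edgeR adjusted p = 0.2124), and without rats 51 and 53 the value was -0.43 ± 0.33 (adjusted p = 0.5989). Muscle markers lay to the other side in the same comparison: 9 of 9 cardiac markers were above 0 (median 1.46, sums 122 to 759 CPM on day 1 and 548 to 1883 CPM on day 7), as were 8 of 8 smooth muscle markers (median 0.38, sums 1670 to 2230 CPM and 1790 to 2441 CPM). None was called or at 0 throughout a group, and their part in the Cpa3 values was not tested. The comparison of day 7 with day 1 called 18 genes (0.116%), and like the one of day 27 at this dose it shares its day 1 air rats with the contrast that chose Aoc1. From day 1 to day 27, 466 genes were called at 10 mg/m3 (2.97%) and 2007 at 30 mg/m3 (12.9%), and 0 of the 9 were among them or had an unadjusted p under 0.05. With the 2 other tools, DESeq2 and limma voom, none of the 9 was called in these 4 comparisons either.

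The related genes were followed by lists. Of 29 other mast cell genes 27 had a row and 15 were tested. Several of the 15 were abundant in whole lung, as given above, and the list is not read as a measure of mast cells alone. Some proteases were nearly absent: Mcpt1 had 0 counts in 55 of 64 libraries and Mcpt4 in 59. None of the 15 was called in the 3 tested dust comparisons, and 5, 7 and 6 of them had log2 fold changes above 0 on day 1 at 10 mg/m3, day 27 at 10 mg/m3 and day 27 at 30 mg/m3. In air, from day 1 to day 27 at 30 mg/m3, Mcpt1l1 fell from 12.4 to 4.02 CPM (-1.58 ± 0.41, edgeR adjusted p = 0.01353) and Mitf, a transcription factor of mast cells and pigment cells, from 15.2 to 12.3 CPM (-0.30 ± 0.09, 0.02525). These 2 of 15 stand beside 12.9% of all genes called in this comparison, a share near that background. Without rats 51 and 53, which had 26.6 and 23.3 CPM of Mcpt1l1 where the other 4 air rats had 5.38 to 6.75, these became -0.60 ± 0.37 (adjusted p = 0.326) and -0.24 ± 0.10 (0.1287), and neither passed. Without rat 51 alone Mcpt1l1 was at -1.19 ± 0.40 (adjusted p = 0.05088), and the call of Mitf was also lost when air rat 49, 51, 52, 53, 81, 83 or 85 was left out alone, with adjusted p up to 0.06357.

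Receptors and transporters of histamine were mostly scarce, and no member was called in any of the 8 tested comparisons. Of the 8 genes, 4 were tested at 10 mg/m3 and 3 at 30 mg/m3. Slc22a3, an organic cation transporter, averaged 3.26 CPM over all libraries, and Slc18a2, the transporter that loads amines into granules, averaged 3.02 CPM. The receptor gene Hrh1 averaged 1.39 CPM, and Hrh4 had 0 counts in 17 libraries. Among 13 other amine oxidases and polyamine enzymes, 12 had a row and 11 were tested. Aoc3, a membrane amine oxidase of vessel walls, averaged 414 CPM, and no gene of the list was called in the tested dust comparisons. In the described contrast of day 1 at 30 mg/m3, 10 of the 11 lay above 0. Their median log2 fold change was 0.11, where all genes had 0.02. On day 7, 2 of 11 lay above 0 at 10 mg/m3 and 7 of 11 at 30 mg/m3. In air, from day 1 to day 27 at 30 mg/m3, Odc1, which makes the putrescine that Aoc1 can oxidise, fell from 130 to 105 CPM (-0.32 ± 0.09, adjusted p = 0.02054), and the spermine synthase Sms fell from 23.6 to 17.7 CPM (-0.41 ± 0.11, 0.01098). The call of Odc1 was lost without air rat 52 of day 1 (adjusted p = 0.09028), air rat 81 (0.07837) or air rat 82 of day 27 (0.07079).

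Signalling genes downstream of Kit and the IgE receptor are shared with other blood cells, and all 16 were tested. None was called in the tested dust comparisons. In air, the kinase Lyn fell from day 1 to day 27 at 30 mg/m3, from 263 to 224 CPM (-0.23 ± 0.06, adjusted p = 0.007671), and the adaptor Gab2 rose at 10 mg/m3, from 82.8 to 105 CPM (0.34 ± 0.09, adjusted p = 0.04606), a call that was lost when any of air rats 18, 19, 20, 1, 3, 5 or 6 was left out, and in a fit of the compared groups alone (adjusted p = 0.2718). Of 13 type 2 cytokines and drivers 5 were tested. Il4, Il5, Il9, Il13 and Il3 had 0 counts in 47, 47, 62, 50 and 63 of 64 libraries, while Il33, an alarmin to which mast cells respond, averaged 443 CPM. Ccl24, an eosinophil chemokine, fell in air from 4.21 to 2.54 CPM between day 1 and day 27 at 30 mg/m3 (-0.70 ± 0.24, adjusted p = 0.04716), but not without rats 51 and 53 (-0.46 ± 0.25, adjusted p = 0.2677), nor when any 1 of the 12 rats other than 54, 55 and 81 was left out.

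Markers of other cells that could carry some of these genes were read the same way. Of 11 basophil and eosinophil markers, 6 were tested at 10 mg/m3 and 7 at 30 mg/m3; the basophil protease Prss34 had 0 counts in 61 libraries, and the eosinophil genes Epx and Prg3 in 38 and 49. In air Il3ra rose at 30 mg/m3 from 15.5 CPM on day 1 to 22.9 on day 7 (0.57 ± 0.10, adjusted p = 0.009359) and 20.8 on day 27 (0.43 ± 0.10, 0.006405), and Alox15 fell at 10 mg/m3 from 32.6 to 16.96 CPM between day 1 and day 27 (-0.94 ± 0.20, 0.01404). The call of Alox15 was lost without air rat 18 of day 1 (adjusted p = 0.07169) or air rat 5 of day 27 (0.06058), and in a fit of the compared groups alone (0.2453). On day 27 at 30 mg/m3, where Aoc1 differed most among the tested comparisons, the neutrophil markers summed to 154 to 294 CPM in air and 124 to 385 CPM in dust, with 7 of 12 tested markers above 0. The airway markers summed to 2569 to 3525 CPM in air and 2105 to 2984 CPM in dust, with 4 of 8 above 0. The basophil and eosinophil markers summed to 83.6 to 440 CPM in air and 66.9 to 540 CPM in dust, with 5 of 7 above 0. Their high sums are mostly Alox15, which ran from 9.67 to 508 CPM over the 64 libraries. No other gene of that list exceeded 31.9 CPM (Il3ra) in any library. No neutrophil marker, 1 airway marker in air and 2 in dust, and 1 basophil or eosinophil marker in air and 2 in dust were at 0 throughout the group. Of the lung capillary endothelium markers 0 of 12 lay above 0 with dust on day 27 at 30 mg/m3, and of the lung identity markers 0 of 6. Their median log2 fold changes were -0.06 and -0.13. Of the cardiac muscle markers 8 of 9 lay above 0, with a median of 0.29. Smooth muscle markers had 3 of 8 above 0, and mesothelium and connective tissue markers 3 of 10. The part of these cells and tissues in the Aoc1 values was not tested. Tissue markers moved in the air comparison that called Mcpt1l1 and Mitf: from day 1 to day 27 at 30 mg/m3, 4 of 8 smooth muscle markers rose, 3 of 10 mesothelium and connective tissue markers fell, and 2 of 12 endothelial markers rose and 1 fell, where 12.9% of all genes were called. Without air rats 51 and 53 the calls of Odc1 (-0.40), Sms (-0.39), Lyn (-0.25) and Il3ra (0.59 on day 7 and 0.45 on day 27) still passed by edgeR, with adjusted p from 0.01083 to 0.03405.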

How the data were processed

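Raw counts per gene symbol for 64 libraries were read from the authors' deposited tables. The tools were, per the submitters' processing notes, bcl2fastq 2.19, Trimmomatic 0.35, HISAT2 2.1.0, SAMtools 1.8, HTSeq 0.6.1 and the build Rnor_6.0. No source used here gives the annotation or strand setting of the counting, so overlapping, antisense and near-identical genes, among them the Mcpt proteases, are uncertain. All 64 columns were matched to samples by their names, and 0 were left unmatched.

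Each study was fitted with all 6 of its groups in edgeR 4.0.16 (R 4.3.3) after filterByExpr (minimum count 10, minimum total 15) and TMM scaling, and tested with the robust quasi-likelihood F test and Benjamini-Hochberg adjustment over all genes tested (15668 at 10 mg/m3, 15551 at 30 mg/m3, 16190 for the dose difference), with a threshold of 0.05. The SE is the size of the log2 fold change divided by the square root of F. The biological coefficient of variation was 16.1% and 16.7%. Levels are TMM-scaled CPM, and correlations used log2(CPM + 0.5) with group means removed, over 15065 genes with a mean of at least 1 CPM for the 5 nearest genes. The text names all 10 genes, list genes past the threshold (at most 4 per list and comparison) or otherwise the 2 most abundant, and the 5 nearest genes; a few others are named as scarce, and were chosen after their values were seen. The 10 genes, the lists and the alternative without air rats 51 and 53 were chosen with earlier results of these data known.

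DESeq2 1.42.0, limma 3.58.1 (voom), DESeq2 size factors, no filter, fits of the compared groups alone and each library left out in turn were tried. On simulated counts with known changes, 79.1% of 2-fold changes were recovered for day 27 at 10 mg/m3 (15540 genes) and 86.6% for day 27 at 30 mg/m3 (15458 genes). The changed genes were drawn at random from all genes, and 9 and 10 unchanged genes were called. These shares do not carry over to genes of wide scatter. Aoc1, Cpa3 and Mcpt2 had a larger SD within groups than 99.2%, 97.4% and 97% of genes of a similar mean level. Promoters came from RefSeq (GRCr8), matched by symbol for 8 of 10 genes, and figures were drawn with matplotlib 3.10.9.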

Additional observations from a re-analysis of the deposited data

Results flagged for a closer look

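Of 117 groups of 4 to 6 rats examined for the 10 genes, 7 held a rat whose gap to its neighbour exceeded the 95% critical value of Dixon's test, where chance alone gives about 1 in 20. The gaps were taken on log2(CPM + 0.5), and the levels below are CPM. Tpsb2 was low in air rat 21 of day 1 at 10 mg/m3, at 0.606 CPM where the next rat had 3.20. Fcer1a was low in dust rat 73 of day 7 at 30 mg/m3, at 0.977 CPM where the next rat had 2.18. Cma1 was low in air rat 81 of day 27 at 30 mg/m3, at 1.06 CPM where the next rat had 1.57. Kit was low in dust rat 32 of day 1 at 10 mg/m3, at 284.5 CPM where the next rat had 332.6. The other 3 were single counts of Hnmt in groups otherwise at 0, namely dust rat 48 of day 7 at 10 mg/m3 (0.145 CPM), dust rat 57 of day 1 at 30 mg/m3 (0.103 CPM) and dust rat 94 of day 27 at 30 mg/m3 (0.144 CPM). The rule always flags a single count in a group otherwise at 0, so the rate of 1 in 20 does not apply to these 3.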

How the results depend on the processing

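Of the 72 tested fold changes of the 9 genes, 33 had the other sign under at least 1 alternative, and 29 of those were under 1 SE as reported. Of their 1215 alternatives 89 had the other sign and 1 passed the threshold, Kit in air from day 1 to day 7 at 10 mg/m3 without air rat 17, so that the count of the 9 genes called there ran from 0 to 1. The other counts of the 9 genes called stayed at 0. All 120 group means stayed within 1 SD when scaled by library totals. No paired analysis was possible because no rat number occurs in more than 1 group. Depth limits what can be said of Hnmt, and of Fcer1a in dust rat 27. Whether the annotation or strand setting of the counting has a part in the low counts of Hnmt was not tested. The cause of the moves below was not tested.

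Counts of genes called moved with the setting. For day 1 at 10 mg/m3 (20 as reported) they were 11 with DESeq2 size factors (45.5% of them higher, against 60% as reported), 5 without a filter, 474 with DESeq2, 8 with limma voom and 3 with the compared groups alone. In air from day 1 to day 7 at 10 mg/m3 (925) DESeq2 gave 1467 and the compared groups alone 316. From day 1 to day 27 at 10 mg/m3 (466) the counts were 268 without a filter, 945 with DESeq2, 706 with limma voom and 0 with the compared groups alone. From day 1 to day 7 at 30 mg/m3 (18) they were 31 with DESeq2 size factors, 96 with DESeq2, 34 with limma voom and 168 without air rats 51 and 53, and from day 1 to day 27 (2007) 1052 without those rats. Dust against air on day 27 at 10 mg/m3 (0) gave 1 with the compared groups alone.

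With 1 library left out, the count ran from 1 (without air 17, dust 29 or dust 31) to 1147 (without air 21) on day 1 at 10 mg/m3. In air it ran from 296 (without air 18) to 2099 (without air 17) for day 7 at 10 mg/m3, from 2 (without air 18) to 1467 (without air 21) for day 27 at 10 mg/m3, from 8 (without air 66) to 46 (without air 53) for day 7 at 30 mg/m3 and from 1068 (without air 52) to 2778 for day 27 at 30 mg/m3. The dose difference ran from 0 to 1.

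Signs turned in these cases with all libraries kept. Tpsb2 was at -0.0042 in air of day 27 at 10 mg/m3 (DESeq2). With limma voom Kit was at 0.0039 on day 1 at 10 mg/m3, Fcer1a at 0.19 in air of day 7 at 10 mg/m3 and Ms4a2 at -0.0653 in the dose difference. Hdc was at 2e-04 in the dose difference with the compared groups alone. Without air rats 51 and 53, air of day 7 at 30 mg/m3 gave Hdc 0.0278, Ms4a2 0.0075 and Fcer1a 0.15, and air of day 27 gave Hdc 0.0458, Cpa3 0.042 and Fcer1a 0.28. The described values that these rats moved on day 1 at 30 mg/m3 stand in the report.

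With 1 library left out, these log2 fold changes crossed 0. Dust on day 1 at 10 mg/m3: Kit -0.0676 to 0.0532, Ms4a2 -0.29 to 0.16, Tpsb2 -0.14 to 0.32. Dust on day 27 at 10 mg/m3: Hdc -0.0891 to 0.49, Cpa3 -0.0191 to 0.73, Ms4a2 -0.10 to 0.45. Air of day 7 at 10 mg/m3: Hdc -0.25 to 0.0249, Mcpt2 -0.74 to 0.0343, Ms4a2 0.00 to 0.48, Tpsb2 -0.17 to 0.38, Fcer1a -0.40 to 0.15. Air of day 27 at 10 mg/m3: Aoc1 -0.79 to 0.0434, Hdc -0.22 to 0.36, Ms4a2 -0.0373 to 0.60, Tpsb2 -0.27 to 0.16. Dust on day 27 at 30 mg/m3: Hdc -0.0438 to 0.12, Cpa3 -0.17 to 0.0912, Ms4a2 -0.0255 to 0.24, Fcer1a -0.0891 to 0.21. Air of day 7 at 30 mg/m3: Aoc1 -0.0466 to 0.26, Hdc -0.15 to 0.0279, Kit -0.10 to 0.0374. Air of day 27 at 30 mg/m3: Hdc -0.0527 to 0.0313, Mcpt2 -0.0218 to 0.40, Ms4a2 -0.0458 to 0.27. The dose difference: Aoc1 -0.10 to 1.23, Hdc -0.42 to 0.14, Cma1 -0.25 to 0.60, Ms4a2 -0.33 to 0.19.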
